A study of Rattus norvegicus with 12 samples.

Results

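The effect of pertussis toxin (PTX) on the response of vascular smooth muscle cells to the thrombin receptor-activating peptide TRAP was measured on 8 of the 12 arrays of the series, taken by their labels. It was calculated as the response to TRAP after PTX minus the response to TRAP alone, each response being stimulated arrays minus the basal arrays of the same experiment. All cells were primary cultures from the aorta of neonatal rats, starved of serum overnight, and each group had 2 arrays. The group called TRAP after PTX received PTX at 200 ng/ml for 24 h and then 25 µM TRAP for 120 min. Its basal arrays were labelled as taken prior to TRAP+PTX stimulation, with no agent. The labels leave unstated whether they had PTX, and an effect of PTX alone and an effect of PTX on the peptide's action cannot be told apart. The TRAP group received 25 µM TRAP for 120 min without PTX, and its basal arrays came from unstimulated cells of that experiment. The other 4 arrays, thrombin and its basal cells, entered only the filter on dim probe sets and the estimate of the spread between replicates. The labels do not say that replicates came from separate cultures, so p-values measure the spread between these samples, which may be technical.

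TRAP is a peptide that activates the thrombin receptor PAR1 without the protease. PAR1 couples to G proteins of the Gq, G12/13 and Gi families, and PTX ADP-ribosylates the alpha subunits of the Gi family so that receptors can no longer activate them. Gi inhibits adenylyl cyclase and releases beta-gamma subunits that act on several kinases, whereas Gq and G12/13 act through phospholipase C and other effectors and are not substrates of the toxin. The comparison asks which part of the transcriptional response to the receptor differs once Gi is uncoupled.

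Values below are array signals, the scaled intensities deposited by the authors, and differences are on the scale of log2(signal + 16). Median signals of the 8 arrays ran from 43.6 to 53.6 and replicate arrays correlated with r from 0.983 to 0.991. Replicates had 0.987 within TRAP and 0.986 within TRAP after PTX. Across these labels, TRAP replicate 2 had 0.99 with TRAP after PTX replicate 1 and 0.981 with its replicate 2. TRAP replicate 1 had 0.987 with TRAP after PTX replicate 2 and 0.986 with its replicate 1. All 8 smooth muscle markers were bright enough to test, but they ranged widely. Acta2, the smooth muscle actin gene, was the brightest at 7322.1 to 9115.4. Mylk was at 69.2 to 144.1, and Myh11, the dimmest, at 37.1 to 65.8, near the median signal of the arrays. Of the markers on the array, 2 of 7 endothelial, 2 of 8 leukocyte, 0 of 6 adipocyte, 5 of 7 adventitial fibroblast and 2 of 5 Schwann cell genes were bright enough. The summed leukocyte signal was 419.5 and 465.5 after PTX and TRAP and 437.3 and 434.4 on its basal arrays, against 457.2 and 497.5 after TRAP and 347.4 and 371 on its basal arrays. Most of the leukocyte sum was Cd14, at 296.9 to 404.5. Endothelial sums lay between 132.1 and 218.2 on all 8 arrays. Adventitial fibroblast sums lay between 7315 and 8314, most of it Mfap5 at 5380.7 to 6222. The defining markers Ptprc, of leukocytes, and Pecam1, of endothelium, stayed at or below 11 and 7.5.

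The 8 arrays did not divide by label alone. Saa3, an acute-phase gene, measured 20.3 and 237.8 after PTX and TRAP and 420.9 and 374.6 on the basal arrays of that experiment, against 222.5 and 22.8 after TRAP and 18.1 and 15.9 on its basal arrays. One set of 4 arrays thus held TRAP after PTX replicate 1, TRAP replicate 2 and both basal TRAP arrays, and the other held TRAP after PTX replicate 2, TRAP replicate 1 and both basal arrays of the TRAP+PTX experiment. Mki67, a proliferation marker, ran the opposite way, with 943.1 and 539.2 after PTX and TRAP and 515.4 and 607.5 on the basal arrays there, against 526.6 and 900.3 after TRAP and 1095.7 and 925.7 on its basal arrays. The sets were noticed in these values, and the labels do not mention them. Exchanging TRAP after PTX replicate 1 and TRAP replicate 1 would make the sets coincide with the experiments and would change every PTX effect given here. Whether these arrays carry each other's labels was not tested, and the labels were used as given. Each stimulated group held 1 array of each set, while the basal groups lay in opposite sets, so the set difference and the PTX effect cannot be told apart in genes that follow the sets. Values computed without TRAP after PTX replicate 1 and without TRAP replicate 1, the stimulated arrays whose set differed from that of their basal arrays, are therefore given beside such results and are called same-set values. In bulk RNA, fewer cells of a kind and less RNA per cell cannot be told apart.

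**Figure D1:**
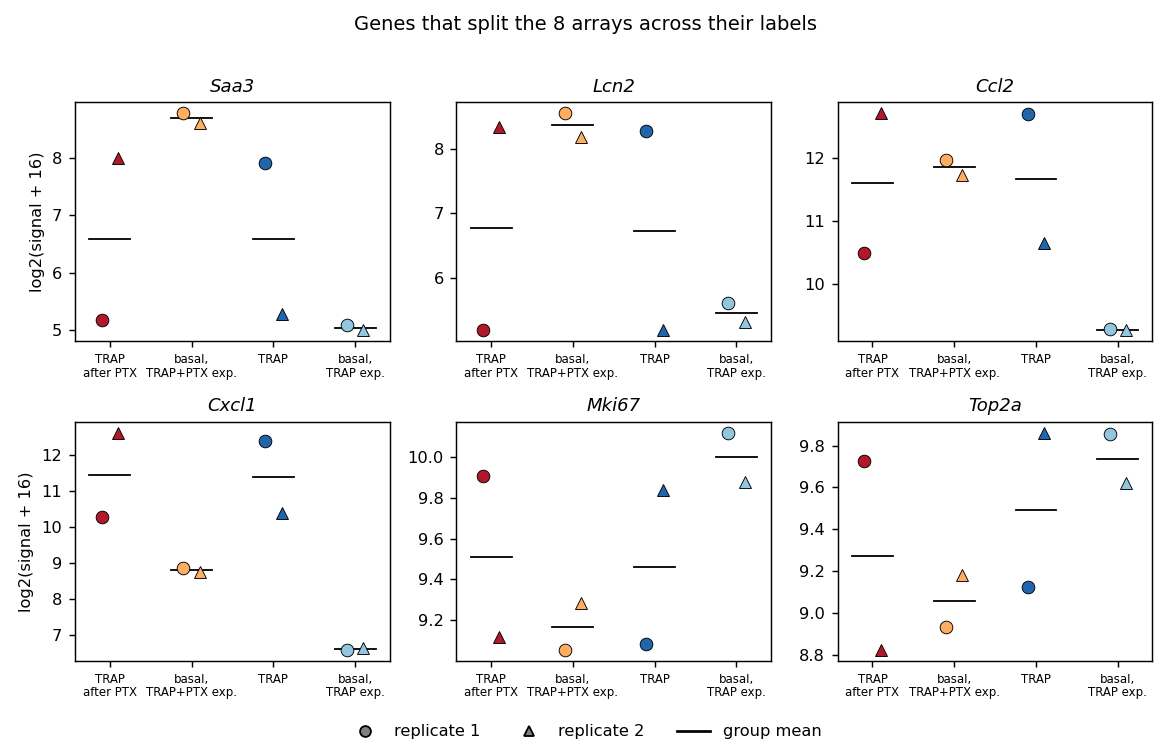
Signal, as log2(signal + 16) on the vertical axis, of 6 genes on each of the 8 arrays by group, with circles for replicate 1, triangles for replicate 2 and bars for group means. Within both stimulated groups the replicates lie far apart (Saa3 at 20.3 and 237.8 after PTX and TRAP, and at 222.5 and 22.8 after TRAP). The 2 basal groups do not overlap in any panel. For Cxcl1 both basal groups (455.5 and 417, and 80.6 and 85.4) lie below all stimulated arrays. For Ccl2 the basal arrays of the TRAP+PTX experiment (4003.5 and 3396.6) lie between the stimulated replicates.

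Few probe sets showed a PTX effect in limma's test of the difference between the responses. Of 18625 tested, 24 (0.129%) passed a Benjamini-Hochberg adjusted p of 0.05, all of them higher after PTX, and 0 were lower. At an unadjusted p under 0.05, 1542 (8.28%) differed, 930 higher and 612 lower. With quantile normalization 31 were higher and 4 lower. The count depended on single arrays: it was 0 without basal TRAP replicate 1, 0 without basal TRAP+PTX replicate 2, 0 without TRAP replicate 2, 0 without TRAP after PTX replicate 1 and 1, not among the 24, without basal TRAP replicate 2. It was 47 without TRAP replicate 1, and 8 probe sets were lower without basal TRAP+PTX replicate 1 and also without TRAP after PTX replicate 2. It was also 0 without an intensity trend in the variance, and 1 when the 8 arrays were fitted alone. As same-set values 9 passed, of which 6 were among the 24.

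The 24 probe sets had their arrays arranged alike. The TRAP response was negative in 24 (from -1.95 to -0.23), past its own test in 21, and the response after PTX and TRAP lay between -0.44 and 1.58, positive in 23 and past its test in 11. Differences between the responses ran from 0.71 to 1.80. Both arrays after PTX and TRAP exceeded both TRAP arrays in all 24, where 18.2% of all probe sets did so, with a median difference of 0.70. Both basal arrays of the TRAP+PTX experiment were below both basal TRAP arrays in 22, against 22.2% of all, with a median difference of -0.55. These 24 were chosen by the test, and over all tested probe sets 10.5% had 4 array-by-array responses after PTX above the 4 after TRAP. Such responses set each of 2 stimulated arrays against each of 2 basal arrays, so the 4 share arrays and are not 4 replicates. All 24 were positive as same-set values, at 0.68 to 1.99.

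Of the 24, 17 carried 1 gene symbol, 1 carried several and 6 none. When each gene was represented by its brightest probe set, 9 of 9906 genes (0.0909%) passed, again with 0 lower in limma. At an unadjusted p under 0.05, 719 genes (7.26%) differed, 367 higher and 352 lower. In all 9 genes, which were chosen by the test, the 4 array-by-array responses after PTX lay above the 4 after TRAP. This was so in 8.56% of all genes. The 9 were 3 transcriptional regulators, 3 genes of chromatin, cohesin loading and splicing, and 3 others.

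Id2, which encodes an inhibitor of basic helix-loop-helix factors, measured 135.4 and 93.9 after PTX and TRAP and 156.4 and 161.5 on its basal arrays, against 70.7 and 59.9 after TRAP and 255.7 and 345.7 on its basal arrays. The stimulated groups did not overlap, and neither did the basal groups. Id2 fell by 1.95 ± 0.18 (SE, log2) with TRAP, while its difference after PTX and TRAP was -0.44 ± 0.18 and did not pass (adjusted p = 0.219). The PTX effect was 1.51 ± 0.25 (adjusted p = 0.0356). Arid5b, a DNA-binding factor with an ARID domain, measured 816.7 and 702.7 after PTX and TRAP and 906.4 and 604 on its basal arrays, against 486.5 and 455.8 after TRAP and 1235.7 and 1240.6 on its basal arrays. Its TRAP arrays lay below the other 6, and the PTX effect was 1.4 ± 0.21 (adjusted p = 0.0261). Nfix, a nuclear factor I protein, had the lowest adjusted p of the 9 genes. It measured 1211.3 and 1264.2 after PTX and TRAP and 1353.2 and 1114.2 on its basal arrays, against 814.9 and 671.4 after TRAP and 1667 and 1731.5 on its basal arrays. Nfix fell by 1.18 ± 0.11 with TRAP and differed by 0.01 ± 0.11 after PTX and TRAP, a PTX effect of 1.19 ± 0.16 (adjusted p = 0.0158). It was also past the test with the same-set value, at 1.36 (adjusted p = 0.0342), which Id2 (1.38, adjusted p = 0.125) and Arid5b (1.34, adjusted p = 0.132) were not.

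The second group handles chromatin and RNA. Ubn1, a subunit of the HIRA histone chaperone complex, measured 392.9 and 351.4 after PTX and TRAP and 246 and 241.5 on its basal arrays, against 274.7 and 217.6 after TRAP and 375.5 and 354 on its basal arrays. It rose by 0.58 ± 0.13 after PTX and TRAP and fell by 0.55 ± 0.13 with TRAP, so the responses were opposite (PTX effect 1.12 ± 0.18, adjusted p = 0.0341). Nipbl, which loads cohesin onto DNA, measured 548.8 and 562 after PTX and TRAP and 452.7 and 439 on its basal arrays, against 417 and 311.8 after TRAP and 619.7 and 576.6 on its basal arrays. Its PTX effect was 1.01 ± 0.17 (adjusted p = 0.0362), with a same-set value of 1.23 (adjusted p = 0.0342). Srrm2, a scaffold of nuclear speckles and splicing, measured 2280.9 and 2220.7 after PTX and TRAP and 2145 and 1697.3 on its basal arrays, against 1376.8 and 1212.4 after TRAP and 2188.7 and 2120.5 on its basal arrays. Its TRAP arrays lay below the other 6, and its PTX effect was 0.97 ± 0.16 (adjusted p = 0.035). A list of 33 long chromatin and splicing genes, chosen with earlier results of these data known, had Nipbl and Srrm2 called and a median PTX effect of 0.14, beside -0.02 over all genes and 0.0909% called.

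The last 3 genes were not placed in either group. Herc1, a giant ubiquitin ligase, measured 193 and 193.3 after PTX and TRAP and 179 and 140.8 on its basal arrays, against 102.5 and 75.8 after TRAP and 235.3 and 205.5 on its basal arrays, a PTX effect of 1.44 ± 0.22 (adjusted p = 0.0261). Loxl2, an enzyme that crosslinks collagen and elastin, measured 1826.8 and 2011.2 after PTX and TRAP and 1339.7 and 1452.6 on its basal arrays, against 1403.6 and 1201.1 after TRAP and 1969.4 and 1772.2 on its basal arrays. It rose by 0.45 ± 0.11 after PTX and TRAP and fell by 0.52 ± 0.11 with TRAP, a PTX effect of 0.97 ± 0.15 (adjusted p = 0.0328). Nuf2, a kinetochore protein of dividing cells, measured 530.6 and 395 after PTX and TRAP and 279.4 and 252.8 on its basal arrays, against 293.4 and 383.2 after TRAP and 548.5 and 496.1 on its basal arrays. Its PTX effect was 1.36 ± 0.23 (adjusted p = 0.0386), and the same-set value was 0.97 (adjusted p = 0.209). The proliferation marker Mki67 moved with the array sets beside it, and the part of the sets in the Nuf2 value was not tested.

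**Figure D2:**
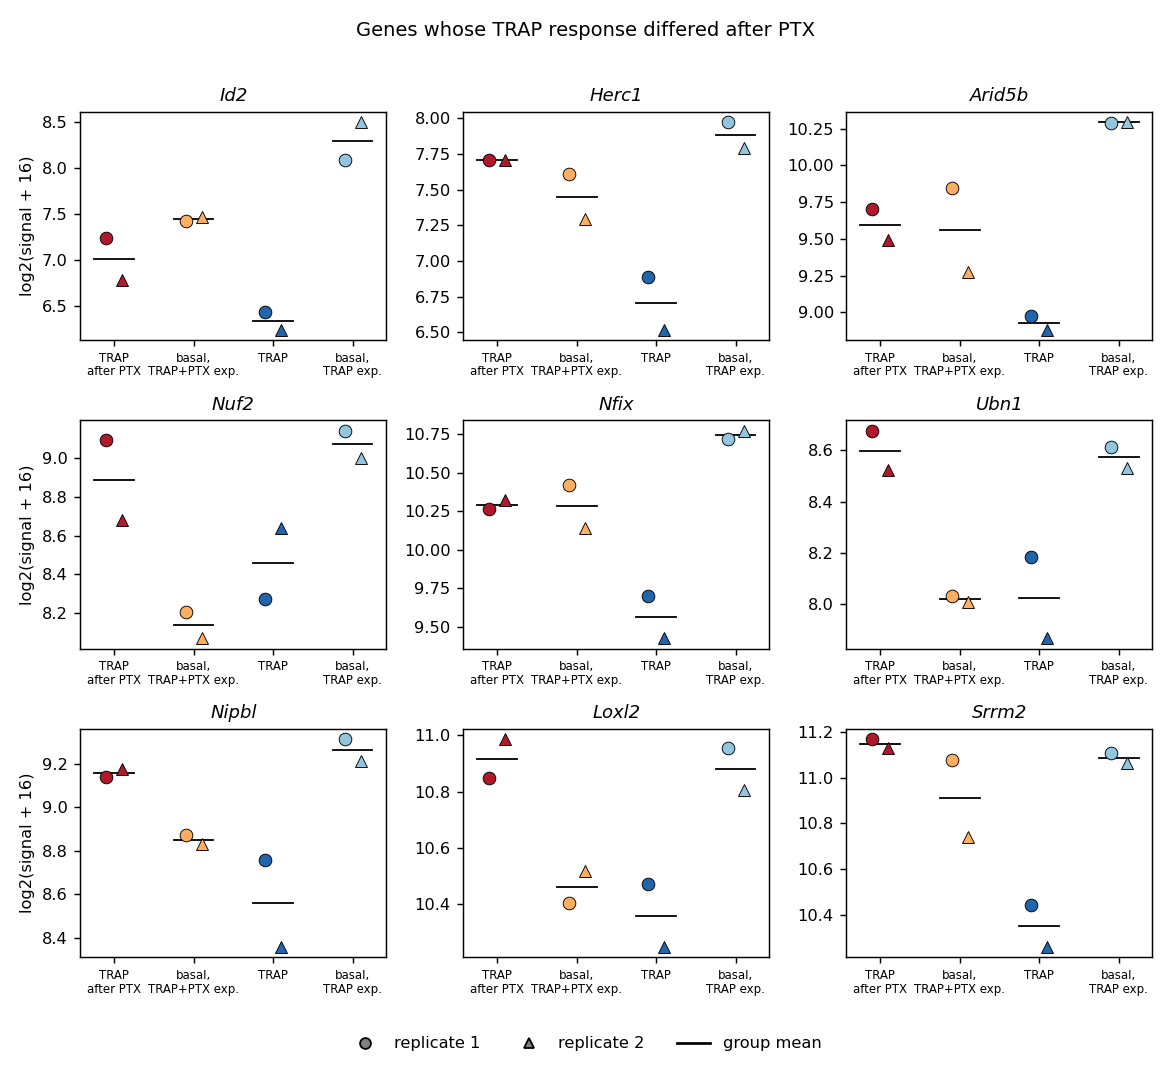
Signal, as log2(signal + 16) on the vertical axis, of the 9 genes with a PTX effect past the test, on each of the 8 arrays by group, with circles for replicate 1, triangles for replicate 2 and bars for group means. The 2 arrays after PTX and TRAP lie above the 2 TRAP arrays in every panel, as for Nfix (1211.3 and 1264.2 against 814.9 and 671.4).

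All 9 calls were lost when any 1 of the 5 arrays whose omission gave 0 calls or 1 was left out. Over the 8 fits that leave out 1 array, Nfix and Arid5b passed in 3, Id2, Herc1, Ubn1 and Srrm2 in 2, and Nuf2, Nipbl and Loxl2 in 1. Their values stayed between 0.80 and 1.74 in those fits. As same-set values only Nfix and Nipbl of the 9 passed. The others missed, with 1.20 for Ubn1 (adjusted p = 0.0585), 1.62 for Herc1 (0.0583), 1.15 for Loxl2 (0.0583) and 1.04 for Srrm2 (0.118), besides the values of Id2, Arid5b and Nuf2 above. With 1 array left out, the highest adjusted p was 0.104 for Nfix and 0.218 for Nuf2.

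A further 8 genes were called only on a probe set that was not their brightest, and are named after their values were seen. They are Setd5 (1.74 ± 0.23, adjusted p = 0.0158), a SET-domain chromatin protein, Aff4 (1.43 ± 0.21, adjusted p = 0.0246), a scaffold of the super elongation complex, and Luc7l3 (1.26 ± 0.21, adjusted p = 0.0356), a splicing factor. Eif3a (1.06 ± 0.17, adjusted p = 0.035), a subunit of a translation initiation factor, and Naa15 (0.83 ± 0.13, adjusted p = 0.0328), a subunit of an acetyltransferase of nascent proteins, belong to protein synthesis. Slc6a6 (1.43 ± 0.19, adjusted p = 0.0158) encodes the taurine transporter, Tns1 (1.22 ± 0.17, adjusted p = 0.0158) a protein of focal adhesions and Golim4 (0.86 ± 0.14, adjusted p = 0.0386) a Golgi membrane protein.

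Probe sets of one gene disagreed. The 17 genes had 39 tested probe sets, and 13 genes had several. The 22 that were not called had a median PTX effect of 0.07 and ran from -0.38 to 1.30, with 13 positive and 9 negative, and their lowest adjusted p was 0.118. For Srrm2 the other probe set gave -0.36 ± 0.16, and for Loxl2 it gave -0.27 ± 0.20. Setd5 showed 1.74 on its called probe set against -0.38 on its brightest. Only Aff4 had an uncalled probe set of nearly the called size (1.30 ± 0.29). The array cannot tell which transcript of a gene each probe set measures, so these values belong to probe sets rather than to whole genes. Herc1, Arid5b, Nuf2 and Nfix had 1 tested probe set each.

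**Figure D3:**
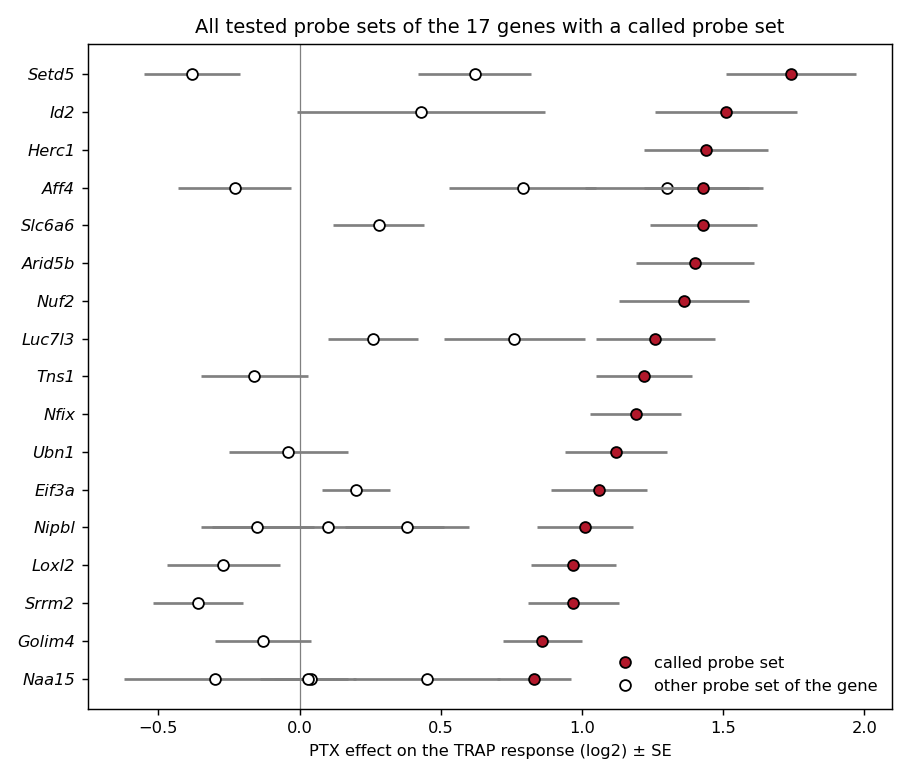
PTX effect on the TRAP response (log2, horizontal axis, with its standard error) for all 39 tested probe sets of the 17 genes, with filled circles for the called and open circles for the other probe sets. Most open circles lie near 0 (median 0.07), far left of the filled circles of the same gene.

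Because adenylyl cyclase is held back by Gi, promoters of the 17 genes were searched for the letters of the cyclic AMP response element. RefSeq (GRCr8) promoters of 300 bases, 250 before to 50 after the start of the gene, were at hand for 13 of the 17. The whole element TGACGTCA stood in 0 of the 13, and in 1.91% of 27457 rat promoters. The shorter core TGACG, searched on both strands and also part of the whole element, stood in 5 of 13 (Aff4, Eif3a, Naa15, Nuf2 and Ubn1), and in 22% of all promoters. The GC box GGGCGG, searched likewise, stood in 10 of 13, and in 34.9% of all. The promoters of Id2 (chr6:47470946-47471245, minus strand), Nuf2 (chr13:84255549-84255848, minus strand) and Aff4 (chr10:37999404-37999703, plus strand) are shown as one without the core, one with a single copy and the one with the most copies, 5. Capitals mark the core on either strand.
Id2: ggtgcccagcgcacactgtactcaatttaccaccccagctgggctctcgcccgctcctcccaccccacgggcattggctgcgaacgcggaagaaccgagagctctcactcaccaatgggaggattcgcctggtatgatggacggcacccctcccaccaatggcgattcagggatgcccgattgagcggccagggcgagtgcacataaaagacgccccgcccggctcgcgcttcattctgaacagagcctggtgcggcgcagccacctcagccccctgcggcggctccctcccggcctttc
Nuf2: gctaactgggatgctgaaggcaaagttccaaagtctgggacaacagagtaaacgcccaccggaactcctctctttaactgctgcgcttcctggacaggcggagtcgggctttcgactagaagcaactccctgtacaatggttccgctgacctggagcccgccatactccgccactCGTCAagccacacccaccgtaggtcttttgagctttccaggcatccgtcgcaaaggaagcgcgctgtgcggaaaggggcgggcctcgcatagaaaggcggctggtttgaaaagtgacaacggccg
Aff4: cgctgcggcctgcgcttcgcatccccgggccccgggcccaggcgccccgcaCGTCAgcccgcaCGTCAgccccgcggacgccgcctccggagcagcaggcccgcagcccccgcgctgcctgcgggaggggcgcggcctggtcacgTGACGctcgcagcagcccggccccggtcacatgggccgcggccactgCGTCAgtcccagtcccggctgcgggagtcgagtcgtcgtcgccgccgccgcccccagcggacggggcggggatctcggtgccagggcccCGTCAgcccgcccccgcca
A match of letters is a description, and these counts rest on genes chosen by the same test.

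The difference of responses divides into a difference between stimulated arrays and a difference between basal arrays. TRAP after PTX and TRAP arrays, compared directly, differed in 17 probe sets (0.0913%), 14 higher (0.0752%) and 3 lower (0.0161%) after PTX, or 14 and 1 with each array centred on its median. At the level of genes 4 (0.0404%) differed, 3 higher (0.0303%) and 1 lower (0.0101%). They were Herc1 (1.00 ± 0.16, adjusted p = 0.0348), Srrm2 (0.79 ± 0.11, adjusted p = 0.0275) and Nfix (0.73 ± 0.11, adjusted p = 0.0348), higher after PTX, and Hira (-0.58 ± 0.10, adjusted p = 0.0483), lower after PTX. Hira, the histone chaperone partner of Ubn1, was named after its values were seen. It measured 259.7 and 268 after PTX and TRAP against 419.3 and 388.6 after TRAP, and 314.8 and 322.5 against 455.5 and 421.1 on the basal arrays, so its PTX effect was -0.14 ± 0.14. This direct comparison holds 1 array of each set in each group, but it depended on single arrays too, with 0 calls without TRAP after PTX replicate 2 and 26 without TRAP replicate 1.

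Between the basal arrays of the TRAP+PTX and the TRAP experiment 8 probe sets differed (0.043%), 4 higher (0.0215%) and 4 lower (0.0215%), or 4 and 2 with median centring and 10 and 16 with quantile normalization. The count was 0 without basal TRAP replicate 1 and 49 without TRAP after PTX replicate 2. At the level of genes 4 (0.0404%) were higher and 0 lower in limma: Klhl40 (1.79 ± 0.23), Il1rl1 (0.94 ± 0.11), Cxcl12 (0.71 ± 0.10) and Pcbd2 (0.66 ± 0.09). Of these, Klhl40 and Pcbd2 were named after their values were seen. Klhl40 was dim, at 55.8 and 72.8 on the basal arrays of the TRAP+PTX experiment. On the basal TRAP arrays it was at 7.8 and 6.5, below the 16 added before the logarithm. Il1rl1, the receptor of the alarmin IL-33, measured 2467.6 and 2384.1 after PTX and TRAP and 2116.4 and 2111.3 on its basal arrays, against 2128.5 and 2404.9 after TRAP and 1052.6 and 1138.2 on its basal arrays. The 3 groups other than basal TRAP lay close together. Il1rl1 rose with TRAP (1.04 ± 0.11), and its PTX effect of -0.84 ± 0.15 did not pass the test (adjusted p = 0.0602). It passed in 3 of 13 alternatives of processing or probe set. These were a pseudocount of 64 (-0.81, adjusted p = 0.0496), a filter at the 60th percentile (-0.84, adjusted p = 0.0479) and quantile normalization (-0.88, adjusted p = 0.0344). With the array sets as a block it did not pass (-0.95, adjusted p = 0.0801). The Il1rl1 value ran from -0.95 to -0.43 over the alternatives, and from -0.93 to -0.75 with 1 array left out.

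Of the 8 genes that rose most with TRAP, 7 also rose after PTX and TRAP, all but Ccl2, and of the 6 that fell most 3 also fell (Bambi, Trib3 and Rreb1). Within its own experiment TRAP after PTX changed 505 probe sets (2.71%), 313 up (1.68%) and 192 down (1.03%), and TRAP changed 727 (3.9%), 342 up (1.84%) and 385 down (2.07%). Median centring gave 412 up and 127 down after PTX and TRAP, and 434 up and 263 down after TRAP. Without TRAP after PTX replicate 1 the 505 were 149, and without basal TRAP replicate 1 the 727 were 208. At the level of genes 293 (2.96%) changed after PTX and TRAP and 392 (3.96%) with TRAP. Of these 112 rose in both, of the 167 that rose after PTX and TRAP and of the 213 that rose with TRAP. The 213 had a median of 0.57 after PTX and TRAP and 0.77 after TRAP, and 0 of them passed the test of the PTX effect in limma. Among the genes that fell, 44 were shared, of 126 (1.27%) after PTX and TRAP and of 179 (1.81%) with TRAP. The 179 had a median of -0.32 after PTX and TRAP and -0.68 after TRAP. Of them 8 passed the test of the PTX effect, where 0.0909% of all genes passed. These genes were chosen on the TRAP response, which favours larger values there. The PTX effect subtracts that response, so the choice also favours positive effects among the 179 and negative ones among the 213. A gene past the test in 1 experiment and not in the other is not shown to differ between them.

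**Figure D4:**
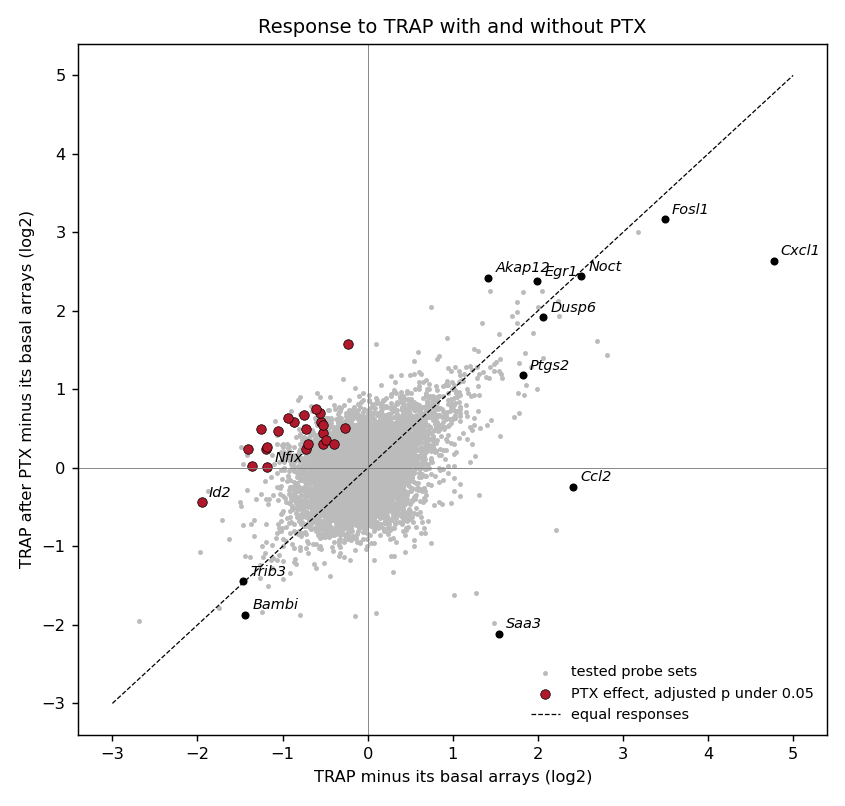
Response to TRAP after PTX (vertical) against response to TRAP (horizontal), both in log2 relative to their own basal arrays, for the 18625 tested probe sets, with the 24 that passed the test of the PTX effect in red and the line of equal responses dashed. Fosl1, Noct, Dusp6 and Egr1 lie near the line, Ccl2 and Saa3 far below it, and all red points above it with negative TRAP responses.

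Fosl1, an AP-1 subunit, measured 1081.8 and 535.5 after PTX and TRAP and 71.1 and 69.7 on its basal arrays, against 699.1 and 1049.7 after TRAP and 64.5 and 59.1 on its basal arrays. It rose by 3.17 ± 0.25 after PTX and TRAP and by 3.49 ± 0.25 with TRAP. The difference of -0.32 had a 95% confidence interval from -1.07 to 0.43. The stimulated arrays of Fosl1 divided by the array sets, and its same-set value of -1.10 lay below that interval. Egr1, a zinc finger factor, measured 3261.3 and 3139.8 after PTX and TRAP and 598.6 and 601.7 on its basal arrays, against 2570.7 and 2793.3 after TRAP and 582 and 749.9 on its basal arrays. The stimulated groups of Egr1 did not overlap, and the difference of 0.39 (interval 0.06 to 0.72) did not pass after adjustment (adjusted p = 0.493). Noct, a phosphatase gene under circadian control, had a PTX effect of -0.08 (interval -0.66 to 0.51) and a same-set value of -0.47. Tiparp, a target of the aryl hydrocarbon receptor, had a PTX effect of 0.16 (interval -0.13 to 0.46). Over the alternatives of processing or probe set the Tiparp value ran from 0.15 to 1.31. Of 30 measured immediate-early transcription factors 11 rose after PTX and TRAP and 14 with TRAP, where 1.69% and 2.15% of all genes rose. The list's median PTX effect was -0.03, or -0.15 as a same-set value, and 0 members passed in limma. At an unadjusted p under 0.05, 2 were higher and 2 lower, where 7.26% of all genes differed.

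Genes that feed back on MAP kinases and on G proteins rose in 7 of 16 after PTX and TRAP and in 6 of 16 with TRAP. Of all genes 1.69% and 2.15% rose. The list had a median PTX effect of 0.05, or -0.24 as a same-set value. In limma 0 were called, and 0 differed at an unadjusted p under 0.05, where 7.26% of all genes did. Dusp6, a phosphatase of ERK, measured 915 and 804.1 after PTX and TRAP and 190 and 243 on its basal arrays, against 758.3 and 936.1 after TRAP and 188.6 and 190.2 on its basal arrays. Its stimulated groups overlapped, and the PTX effect was -0.14 (interval -0.58 to 0.30), with a same-set value of -0.38. Sgk1, a kinase gene induced by serum, measured 538.8 and 276.5 after PTX and TRAP and 55.2 and 85 on its basal arrays, against 322 and 567.4 after TRAP and 93.9 and 88.5 on its basal arrays. The PTX effect of Sgk1 was 0.20 (interval -0.64 to 1.04), and its same-set value of -0.66 lay below that interval. Dusp5, another ERK phosphatase, measured 350.8 and 190.2 after PTX and TRAP and 88.4 and 104.8 on its basal arrays, against 194.5 and 458.4 after TRAP and 56.9 and 79.7 on its basal arrays. Its PTX effect was -0.63 (adjusted p = 0.777), and it was -1.63 (adjusted p = 0.0397) when the array sets entered as a block. The same-set value was also -1.63, with adjusted p = 0.0583. Since the sets were read from the same values, this is not independent support.

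Ptgs2, the inducible cyclooxygenase that makes prostaglandins, measured 2743.5 and 2253.5 after PTX and TRAP and 994.6 and 1188.4 on its basal arrays, against 3591.6 and 3510 after TRAP and 1050.4 and 945.9 on its basal arrays. It rose by 1.18 ± 0.12 after PTX and TRAP and by 1.82 ± 0.12 with TRAP. The stimulated groups did not overlap and the basal groups did, and the PTX effect of -0.63 ± 0.17 did not pass (adjusted p = 0.222). Its same-set value was -0.76. Bambi, a pseudoreceptor that dampens signals of the TGF-beta family, measured 88.5 and 72.9 after PTX and TRAP and 342 and 332.4 on its basal arrays, against 99.7 and 107.5 after TRAP and 296.2 and 318.6 on its basal arrays. It fell by 1.87 ± 0.17 after PTX and TRAP and by 1.44 ± 0.17 with TRAP. Trib3, a pseudokinase of the stress response, fell by 1.44 ± 0.20 after PTX and TRAP and by 1.46 ± 0.20 with TRAP. Its PTX effect was 0.02 (interval -0.58 to 0.62), and ran from -1.08 to 0.44 over the alternatives of processing or probe set. Rreb1, a zinc finger factor, measured 209.2 and 184.7 after PTX and TRAP and 362.6 and 286.7 on its basal arrays, against 126.9 and 148.1 after TRAP and 362.8 and 379.1 on its basal arrays. It fell by 0.67 ± 0.15 after PTX and TRAP and by 1.34 ± 0.15 with TRAP, and the PTX effect of 0.67 (interval 0.22 to 1.11) did not pass (adjusted p = 0.331). Among 15 targets of BMP, TGF-beta and Notch, Id2 alone was called, where 0.0909% of all genes were, and the list's median was -0.13. Id3, a relative of Id2, rose by 1.14 ± 0.10 after PTX and TRAP and by 1.58 ± 0.10 with TRAP, and its PTX effect was -0.43 (adjusted p = 0.387).

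No gene of the receptors, of the Gi family or of the adenylyl cyclases passed the test of the PTX effect. F2r, the gene of PAR1, measured 3964.3 and 4194.8 after PTX and TRAP and 2767.8 and 2747.8 on its basal arrays, against 3251.7 and 3450.6 after TRAP and 2917.3 and 3266.7 on its basal arrays. The stimulated groups did not overlap. F2r rose by 0.56 ± 0.09 after PTX and TRAP (adjusted p = 0.00574), its difference with TRAP was 0.12 ± 0.09, and the PTX effect of 0.44 (interval 0.16 to 0.73) did not pass (adjusted p = 0.292). Gnai2, a Gi alpha subunit, was at 1095.1 and 1012.6 after PTX and TRAP and 1071.3 and 884.6 on its basal arrays, against 896.9 and 836.6 after TRAP and 988.6 and 943.2 on its basal arrays, a PTX effect of 0.27 (interval -0.05 to 0.58). PTX modifies the protein, so these transcript levels do not show whether the toxin acted. Gnai1 and Gnao1 lay between 23 and 41.7 on all 8 arrays. The 11 measured Gi alpha subunits, adenylyl cyclases and phosphodiesterases had a median PTX effect of 0.15, from -0.43 to 0.41. In limma 0 were called, and 0 differed at an unadjusted p under 0.05, where 7.26% of all genes did.

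Among 21 other G protein subunits and effectors the median was -0.09 and 0 were called in limma. Of these 0 were higher and 2 lower at an unadjusted p under 0.05, where 7.26% of all genes differed. Among 18 genes known as cyclic AMP or CREB targets, 7 rose after PTX and TRAP and 6 with TRAP, where 1.69% and 2.15% of all genes rose. Their median PTX effect was 0.15, or -0.09 as a same-set value, and 0 were called in limma. At an unadjusted p under 0.05, 1 was higher and 1 lower, where 7.26% of all genes differed. Akap12, a scaffold of protein kinase A, measured 3365 and 1503.2 after PTX and TRAP and 414.3 and 401 on its basal arrays, against 1567.7 and 3728.6 after TRAP and 894.9 and 889.9 on its basal arrays. It followed the array sets, with a PTX effect of 1.00 (adjusted p = 0.618) and a same-set value of -0.20.

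Cytoskeletal targets of the transcription factors SRF and MRTF rose in 3 of 21 after PTX and TRAP and in 1 with TRAP. Of all genes 1.69% and 2.15% rose. The list's median PTX effect was 0.10 and 0 were called in limma. At an unadjusted p under 0.05, 1 was higher and 2 lower, where 7.26% of all genes differed. Ccn1, a secreted matricellular protein, measured 1268.2 and 1262.5 after PTX and TRAP and 686.8 and 687.2 on its basal arrays, against 834.1 and 766.2 after TRAP and 812.2 and 1071.5 on its basal arrays. Its arrays after PTX and TRAP lay above the other 6. It rose by 0.87 ± 0.15 after PTX and TRAP, its difference with TRAP was -0.22 ± 0.15, and the PTX effect of 1.08 ± 0.21 missed the threshold (adjusted p = 0.0631). It passed with a pseudocount of 64 (1.03, adjusted p = 0.0395), and its same-set value was 1.14. Contractile markers, 18 genes, had a median of 0.08 and 0 called in limma. Of these 1 was higher and 0 lower at an unadjusted p under 0.05, where 7.26% of all genes differed. Haemostasis, protease and matrix genes rose in 2 of 12 after PTX and TRAP and in 4 with TRAP, against 1.69% and 2.15% of all genes. Their median PTX effect was -0.13 and 0 were called in limma. At an unadjusted p under 0.05, 0 were higher and 3 lower, against 7.26% of all genes in either direction. F3, which encodes tissue factor, measured 4871.3 and 5519.7 after PTX and TRAP and 4021.6 and 3446.7 on its basal arrays, against 5534.1 and 5111.8 after TRAP and 2200 and 2332.8 on its basal arrays. The stimulated groups of F3 overlapped and its basal groups did not, with a PTX effect of -0.75 ± 0.18 (adjusted p = 0.182).

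Inflammatory and cell division genes had large differences that did not pass, and these followed the array sets. The sets were themselves read from genes of these kinds. A same-set value nearer to 0 is therefore built into the choice of arrays and is not independent support. Ccl2, a chemokine for monocytes, measured 1433.8 and 6720.7 after PTX and TRAP and 4003.5 and 3396.6 on its basal arrays, against 6680.9 and 1590.9 after TRAP and 607.6 and 598.4 on its basal arrays. The stimulated groups of Ccl2 overlapped almost fully. Its PTX effect was -2.65 ± 0.84 (adjusted p = 0.347), with a stimulated part of -0.07, a basal part of 2.58 and a same-set value of -0.51. Cxcl1, a chemokine for neutrophils, measured 1237.8 and 6274.7 after PTX and TRAP and 455.5 and 417 on its basal arrays, against 5354.7 and 1332.8 after TRAP and 80.6 and 85.4 on its basal arrays. It rose in both experiments, and its PTX effect of -2.13 ± 0.84 (adjusted p = 0.498) was 0.03 as a same-set value. Nfkbiz, a regulator of NF-kB, had -1.07 ± 0.51 and a same-set value of 0.15. For Saa3 the PTX effect of -3.65 ± 1.07 (adjusted p = 0.285) was -0.94 as a same-set value, for Lcn2, a siderophore-binding protein, -2.87 was 0.26, and for complement C3 -2.63 was 0.10.

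Over whole lists the pattern was alike, and the same limit holds for their same-set values. Chemokines, cytokines and adhesion molecules (15 genes) had a median PTX effect of -0.84 with 1 member positive. It came with a median of -0.05 between stimulated arrays and 0.74 between basal arrays, and was -0.10 as a same-set value. NF-kB feedback genes (18) had -0.49, and 0.02 as a same-set value. Acute-phase and complement genes (10) had -1.36 with 0 positive, -0.01 between stimulated and 1.35 between basal arrays, and -0.20 as a same-set value. S and M phase genes (27) had 0.60 with 27 positive, -0.05 between stimulated and -0.66 between basal arrays, and -0.02 as a same-set value. No member of these 4 lists passed limma's test of the PTX effect. At an unadjusted p under 0.05, 0 chemokine genes were higher and 8 lower, 0 NF-kB genes were higher and 7 lower, 0 acute-phase genes were higher and 8 lower, and 11 S and M phase genes were higher and 0 lower. Of all 9906 genes 367 were higher and 352 lower at that level. The leukocyte marker sum was 434.4 to 437.3 on the basal arrays of the TRAP+PTX experiment and 347.4 to 371 on the basal TRAP arrays, with Ptprc at most 11. Most of the sum was Cd14, whose basal groups overlapped (351.8 and 296.9 against 302.4 and 326.2). The part of leukocyte RNA in these values was not tested. Median values over all genes were -0.02 for the PTX effect and -0.03 as a same-set value.

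**Figure D5:**
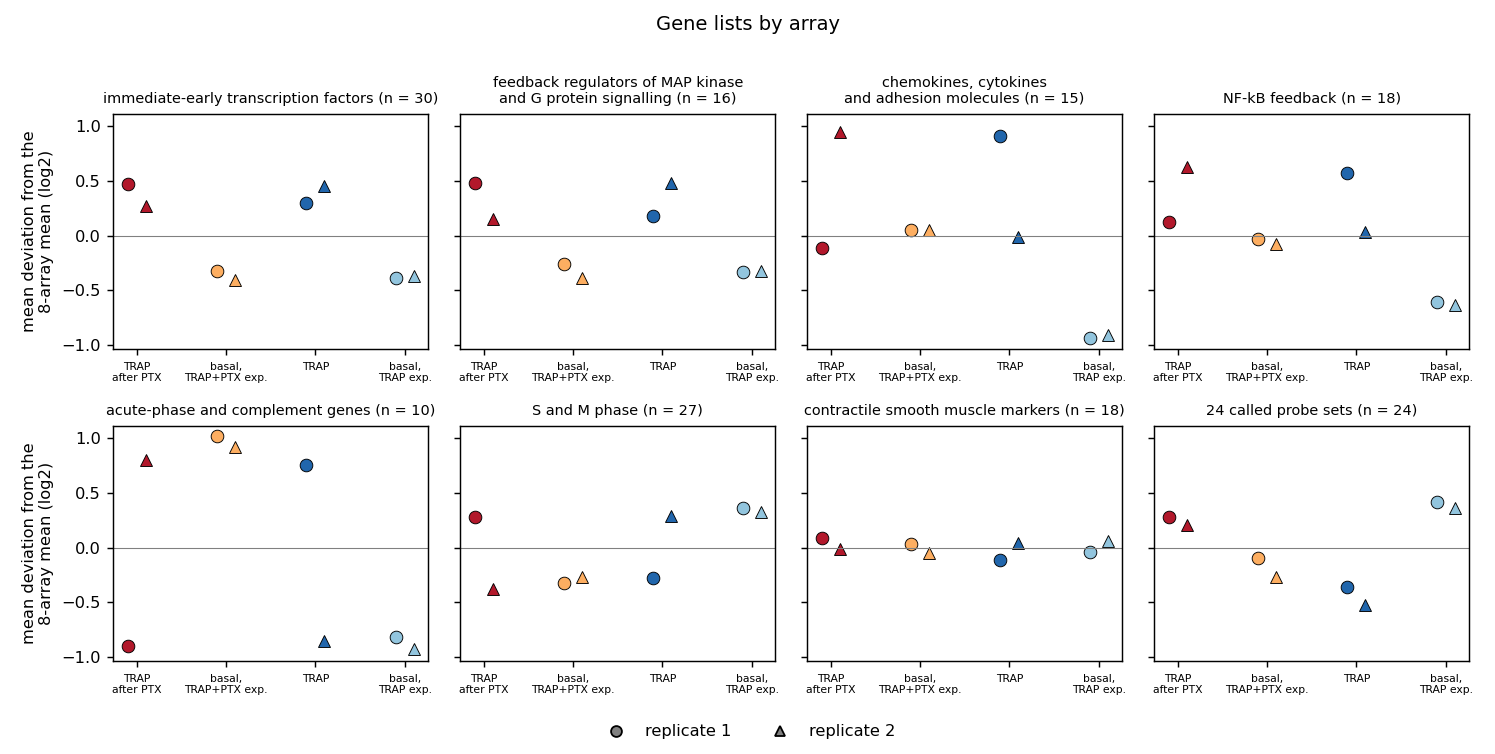
Mean deviation of each list from its mean over the 8 arrays (log2, vertical axis) on each array by group, with circles for replicate 1 and triangles for replicate 2. Immediate-early factors separate stimulated from basal arrays in both experiments (0.47 and 0.27 against -0.32 and -0.41 with PTX, 0.30 and 0.45 against -0.39 and -0.37 without), whereas acute-phase and S and M phase genes separate the replicates of each stimulated group.

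The other lists had no member past limma's test of the PTX effect. At an unadjusted p under 0.05 each had at most 2 higher and 2 lower, where 7.26% of all genes differed. Their medians were, for growth factors -0.04, growth arrest and FoxO targets 0.04, G1 regulators 0.26, the integrated stress response 0.02, the unfolded protein response -0.01, heat shock -0.03, cholesterol synthesis 0.12, hypoxia and glycolysis -0.03, collagens -0.07, interferon-stimulated genes -0.31, ribosome biogenesis -0.06, the respiratory chain 0.02 and reference genes 0.07. Targets of the aryl hydrocarbon receptor rose in 5 of 6 after PTX and TRAP and in 3 of 6 with TRAP. Of all genes 1.69% and 2.15% rose. The median PTX effect of these targets was 0.14. Cyp1b1, a cytochrome P450 among them, measured 8008.8 and 8831.1 after PTX and TRAP and 5102.1 and 4728.5 on its basal arrays, against 7226 and 7505.2 after TRAP and 3621.4 and 3851.7 on its basal arrays. Both of its basal and both of its stimulated groups stood apart, each higher in the TRAP+PTX experiment, and the PTX effect was -0.20 (interval -0.51 to 0.11).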

How the data were processed

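RNA of the 12 samples was hybridised to 1-colour Affymetrix arrays. Per the labels and the submitters' processing notes, the deposited values are array intensity, not logged, which the authors produced in GCOS 1.4, and they show a scaling to a mean of about 200 without the lowest and highest 2%. The genome build is not given in the sources used here.

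From these, log2(signal + 16) was computed, which understates fold changes of dim genes. Detection calls were not used. Of 31099 probe sets, 57 controls were left out and 18625 were kept, those whose mean over the 12 arrays exceeded the 40th percentile. The array annotation gave 1 symbol to 20826 probe sets, several to 436 and none to 9780 (20758 matched by Entrez number, 0 symbols changed). A gene was represented by its brightest kept probe set (9906 genes).

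The 6 groups were fitted together in R 4.3.3 by limma 3.58.1 (eBayes with an intensity trend, 6 residual and 7.50 prior degrees of freedom), with 2-sided p-values adjusted by Benjamini and Hochberg's method over all 18625. The number of arrays limits the precision: the median standard error was 0.23 for the PTX effect and 0.16 for a response. The script was tested on simulated data.

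The members, the 29 gene lists (538 genes), the 2 array sets, the alternatives and the rule for named genes were chosen with earlier results of these data known. Named genes are those past the threshold of the PTX effect with responses that do not overlap (up to 12 each way), the 8 highest and 6 lowest of the TRAP response, of each list the 3 members or fewer with the smallest PTX effect p, all Gi alpha and thrombin receptor genes, and Saa3, Lcn2, C3, Ccl2, Mki67 and Top2a. Alternatives changed the pseudocount, filter, scaling, trend, arrays, blocks or probe set, or left out each array in turn; the lone array of a group then takes its spread from the remaining groups. Promoters are those of RefSeq GRCr8. One result is not reported here.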

Additional observations from a re-analysis of the deposited data

Results flagged for a closer look

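By limma's test of the difference itself, the response to TRAP after PTX differed from the response to TRAP in 9 genes, each higher after PTX. In each, the 4 array-by-array responses, which share 2 arrays per group, lay above the 4 after TRAP. The same held in 8.56% of all genes. It was required by the rule that named these genes, and passing the test favours it, so it is not separate support. The log2 differences were 1.51 for Id2 (adjusted p = 0.0356), 1.44 for Herc1 (0.0261), 1.4 for Arid5b (0.0261), 1.36 for Nuf2 (0.0386), 1.19 for Nfix (0.0158), 1.12 for Ubn1 (0.0341), 1.01 for Nipbl (0.0362), 0.97 for Loxl2 (0.0328) and 0.97 for Srrm2 (0.035). Each call was lost in at least 5 of the 8 fits with 1 array omitted.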

How the results depend on the processing

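The 24 probe sets with a PTX effect became 13 without a filter on dim probe sets, 0 without an intensity trend, 1 with the 8 arrays alone, 9 without both TRAP after PTX replicate 1 and TRAP replicate 1, and 0 to 47 with 1 array left out. TRAP after PTX against basal (505) gave 334 without a trend, 166 without those 2 arrays and 149 to 486 with 1 array left out, and TRAP against basal (727) gave 208 to 742. The direct comparison of stimulated arrays (17) gave 3 without a filter, 0 without a trend, 3 with the 8 arrays alone, 75 without those 2 arrays, 26 with the array sets as a block and 0 to 26 with 1 array left out. The comparison of basal arrays (8) gave 22 with a pseudocount of 64, 1 without a filter, 26 with quantile normalization, 2 without a trend, 1 with the 8 arrays alone, 218 without those 2 arrays, 0 with the array sets as a block and 0 to 49 with 1 array left out. The cause was not tested. Among the 9 genes with a called PTX effect the sign turned only on other probe sets, with Ubn1 -0.04, Nipbl -0.15, Loxl2 -0.27 and Srrm2 -0.36. Over all named genes, 2197 values kept their side of the threshold, 105 lost the call and 9 gained one. Of the 2197, 72 values of 34 genes that passed in neither fit changed sign, 51 of them on the same probe set, such as Akap12, Lcn2, Nfkbiz and Sgk1 in the same-set values.

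Same-numbered replicates deviated together with r of 0.022 in the TRAP+PTX experiment and 0.104 in the TRAP experiment, so the numbers are not shown to pair arrays. With the replicate number as a block the PTX effect had 23 probe sets (18 of the 24), TRAP after PTX 469 and TRAP 747. No block by replicate number could be estimated for the direct and basal comparisons, whose groups lie in different experiments. A crossed pairing, chosen after seeing the data because numbers of TRAP after PTX and TRAP arrays ran opposite (r = -0.321), gave 0, 220 and 413.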
